A study of Macaca mulatta with 51 samples.

Results

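The 10 genes described here belong to the cellular oxygen-sensing pathway and were chosen by name: the hypoxia-inducible factor subunits HIF1A and EPAS1, the oxygen-sensing prolyl hydroxylases EGLN1 and EGLN3, the ubiquitin ligase adaptor VHL, the histone demethylase KDM3A, and the hypoxia target genes BNIP3, ADM, PDK1 and ANKRD37. Of the 10 genes, 9 had a row among the 16033 genes of the count table, and VHL was not analysed here. The identifiers given with these rows were ENSG00000100644 for HIF1A, ENSG00000116016 for EPAS1, ENSG00000135766 for EGLN1, ENSG00000129521 for EGLN3, ENSG00000115548 for KDM3A, ENSG00000176171 for BNIP3, ENSG00000148926 for ADM, ENSG00000152256 for PDK1 and ENSG00000186352 for ANKRD37.

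Hypoxia-inducible factors are transcription factors made of an oxygen-regulated alpha subunit, such as HIF1A or EPAS1, and the partner ARNT. When oxygen is present, the EGLN enzymes hydroxylate the alpha subunit, the VHL protein binds it, and it is degraded. Most of this control acts on the protein, which RNA sequencing does not measure. In low oxygen the factor accumulates and raises its targets, several of which (EGLN3, KDM3A, BNIP3, ADM, PDK1 and ANKRD37) are used as readouts of the pathway. KDM3A also removes methyl groups from lysine 9 of histone H3 and is known in mice for a role in energy expenditure and resistance to obesity. Expanding fat can outgrow its blood supply, and HIF1A is also prominent in macrophages, so both fat cells and immune cells of adipose tissue can express these genes.

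RNA was sequenced from punch biopsies of subcutaneous abdominal adipose tissue (AT) and gastrocnemius skeletal muscle (SM) of rhesus macaques (Macaca mulatta), a non-human primate. All animals were adult, obese and non-diabetic, of both sexes with the females ovariectomized, and had eaten a high-fat, high-sucrose diet for years before the study, so every group shares diet-induced obesity. The same animals were sampled before treatment ("pre"), after 12 weeks of daily subcutaneous native human FGF21 at rising doses ("post"), and 16 weeks after the last dose ("wash"). Libraries with counts numbered 10 pre, 9 post and 8 wash from 10 animals in AT, and 6 pre, 8 post and 7 wash from 8 animals in SM. There was no untreated group, so the effect of treatment, of the weight loss that came with it and of time cannot be told apart.

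Total counts ranged from 14455195 to 23940980 per library (median 18578869). The smallest raw count of any of the 9 genes was 18, for ADM in 1 SM library, and in AT the smallest was 65, for ANKRD37. Values are given as CPM, read counts scaled to a common library size, after TMM scaling within a tissue, which corrects for differences in library composition. A gene was called differentially expressed (DE) when its Benjamini-Hochberg adjusted p was under 0.05 over all genes tested and its log2 fold change exceeded 0.26 in size, in a robust quasi-likelihood test of edgeR with the animal as a block. The tissue labels were checked against markers: 10 of 10 skeletal muscle markers were higher in every SM library than in any AT library, and 5 of 6 measured adipocyte markers were higher in every AT library. One SM library stood apart, the post library of animal 21189, whose summed skeletal muscle markers were 59100 CPM against a median of 197036 CPM over the post libraries.

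In AT, 5 of the 9 genes changed between the pre and post biopsies. HIF1A, KDM3A and ADM rose by about 1.5-fold to 1.7-fold, while EGLN3 fell to about 0.5 of its pre level and ANKRD37 also fell. EPAS1, EGLN1, BNIP3 and PDK1 did not pass the test. Over all 13367 genes tested in AT, 15.5% were DE in this comparison, 6.98% higher and 8.49% lower. For each of the 5 genes the ranges of the pre and post libraries overlapped.

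**Figure D1:**
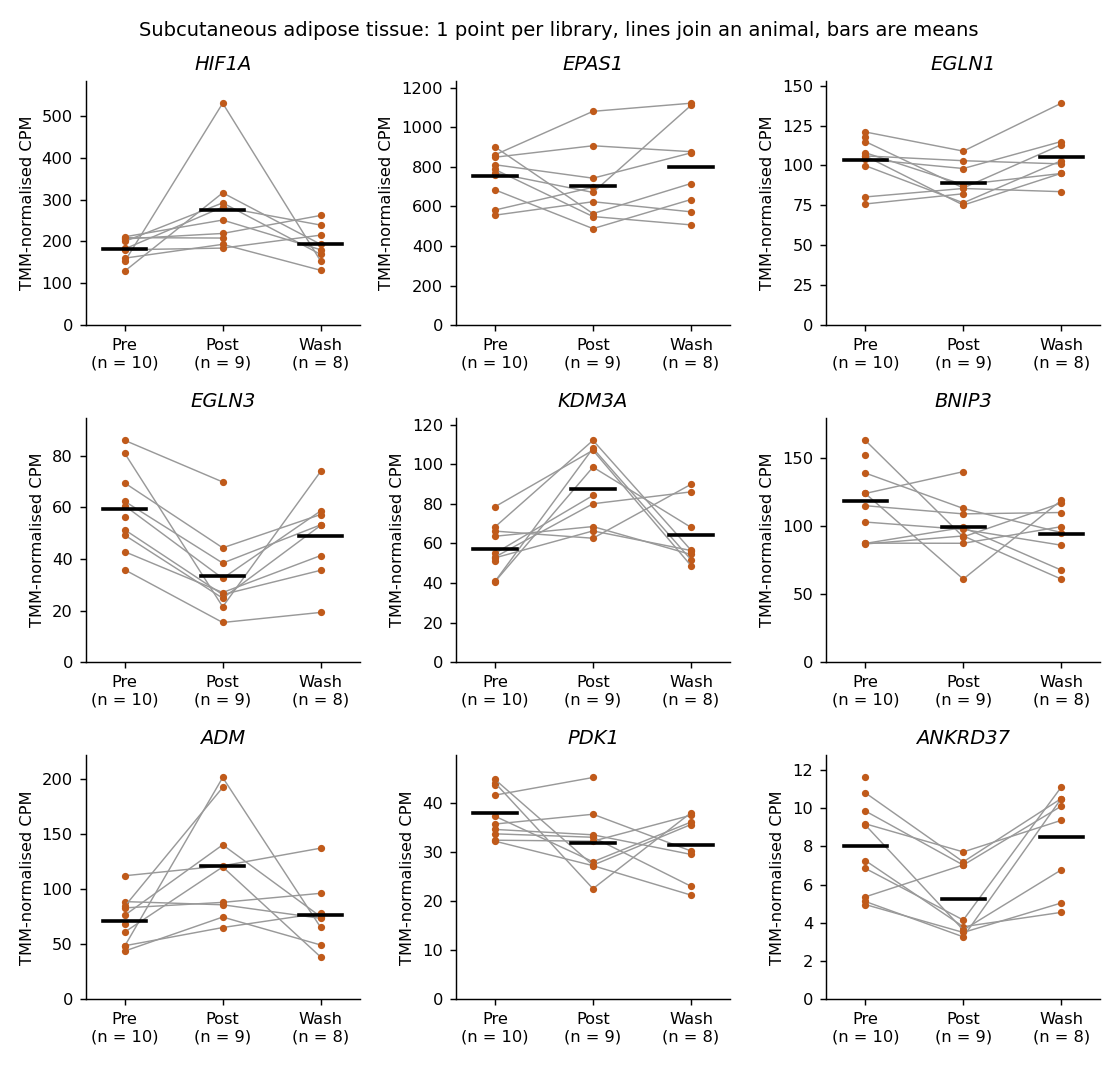
TMM-normalised CPM of the 9 measured genes in AT at pre (n = 10), post (n = 9) and wash (n = 8), with 1 point per library, grey lines joining the libraries of an animal and black bars at the group means. EGLN3 was lower at post than at pre in 9 of 9 animals, and KDM3A, HIF1A and ADM were each higher in 8 of 9.

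HIF1A, the oxygen-regulated subunit of HIF-1, ranged from 129 to 211 CPM before treatment (median 183). At the end of treatment it ranged from 184 to 530 CPM (median 251), and 6 of 9 post libraries lay above every pre library. The highest value, in animal 20275, stood well above the next highest of 316 CPM in animal 22130, and these 2 animals also had the lowest pre values, 152 and 129 CPM. The fitted rise was 0.57 on the log2 scale (SE 0.18, adjusted p = 0.0366), or 1.48-fold, and the change per animal ran from -0.01 to 1.81. The call was lost without any 1 of 5 animals (20275, 21189, 21866, 22130 or 26292), with adjusted p up to 0.120. It was made in 7 of 10 other settings, and not with voom of limma, the method the paper used (0.33, adjusted p = 0.0878).

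EPAS1, which encodes HIF-2 alpha, the alpha subunit prominent in endothelium and fat, had 756 ± 116 CPM (SD, n = 10) at pre and 702 ± 188 CPM (n = 9) at post. It was lower in 5 animals and higher in 4. The fitted difference of -0.13 (SE 0.12, adjusted p = 0.450) did not pass the test.

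The 2 hydroxylases had different results. EGLN3 (PHD3), a hydroxylase that is itself a strongly hypoxia-inducible target, ranged from 35.8 to 85.9 CPM at pre (median 58.4) and from 15.4 to 69.8 CPM at post (median 27.0). At post, 6 of the 9 libraries lay below every pre library, and animal 20456 had the highest value at both time points. EGLN3 fell by 0.90 on the log2 scale (SE 0.13, adjusted p = 9.55e-04), to 0.534 of its pre level. The fall was seen in 9 of 9 animals, from -0.30 in animal 20456 to -1.91 in animal 20275, and was called in every one of 10 other settings and without any one of the 10 animals. Animal 19832 had only a pre library in AT, so leaving it out could hardly change any AT comparison within animals. EGLN1 (PHD2), the main oxygen sensor in most cells, had 103 ± 14.9 CPM (SD, n = 10) at pre and 89.3 ± 11.7 CPM (n = 9) at post. It was lower in 7 of 9 animals, but the difference of -0.18 (SE 0.07, adjusted p = 0.0854) passed neither limit.

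KDM3A, the H3K9 demethylase, ranged from 40.7 to 78.5 CPM at pre (median 54.0) and from 62.6 to 112 CPM at post (median 84.2). At post, 6 of the 9 libraries lay above every pre library, led by animals 21189, 22130 and 24849 with 112, 108 and 107 CPM. KDM3A rose by 0.61 on the log2 scale (SE 0.16, adjusted p = 0.0190), or 1.52-fold. It was higher in 8 of 9 animals, with the largest change of 1.40 in animal 22130 and the smallest of -0.08 in animal 23004. The call held in 10 of 10 other settings and was lost without animal 20275 or animal 22130, with adjusted p up to 0.0677.

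The 4 remaining targets did not move together. ADM, which encodes the vasodilator peptide adrenomedullin, ranged from 43.8 to 112 CPM at pre (median 72.3) and from 65.1 to 201 CPM at post (median 120). Animals 24849 and 20456 had the highest post values, 201 and 192 CPM. ADM rose by 0.75 on the log2 scale (SE 0.20, adjusted p = 0.0193), or 1.68-fold, in 8 of 9 animals, and was called in all 10 other settings and without any one of the 10 animals.

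ANKRD37, a small ankyrin repeat protein, had the fewest reads of the 9 genes in AT, with 4.96 to 11.6 CPM at pre (median 8.19) and 3.27 to 7.71 CPM at post (median 4.15). It fell by 0.56 on the log2 scale (SE 0.17, adjusted p = 0.0368) and was lower in 8 of 9 animals, with animal 20456 alone higher, by 0.38. This call held in 8 of 10 other settings and without only 3 of the 10 animals (adjusted p up to 0.0925 without one of the other 7). Among the 3 was animal 19832, which had only a pre library in AT.

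BNIP3, an outer mitochondrial membrane protein that promotes mitophagy, had 118 ± 27.5 CPM (SD, n = 10) at pre and 99.1 ± 21.3 CPM (n = 9) at post, with a difference of -0.19 (SE 0.13, adjusted p = 0.316). PDK1, a kinase that restrains pyruvate dehydrogenase, had 38.1 ± 5.05 CPM at pre and 31.9 ± 6.72 CPM at post, with a difference of -0.23 (SE 0.12, adjusted p = 0.167). BNIP3 was lower in 6 animals and PDK1 in 7 of the 9, and neither difference passed the test.

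**Figure D2:**
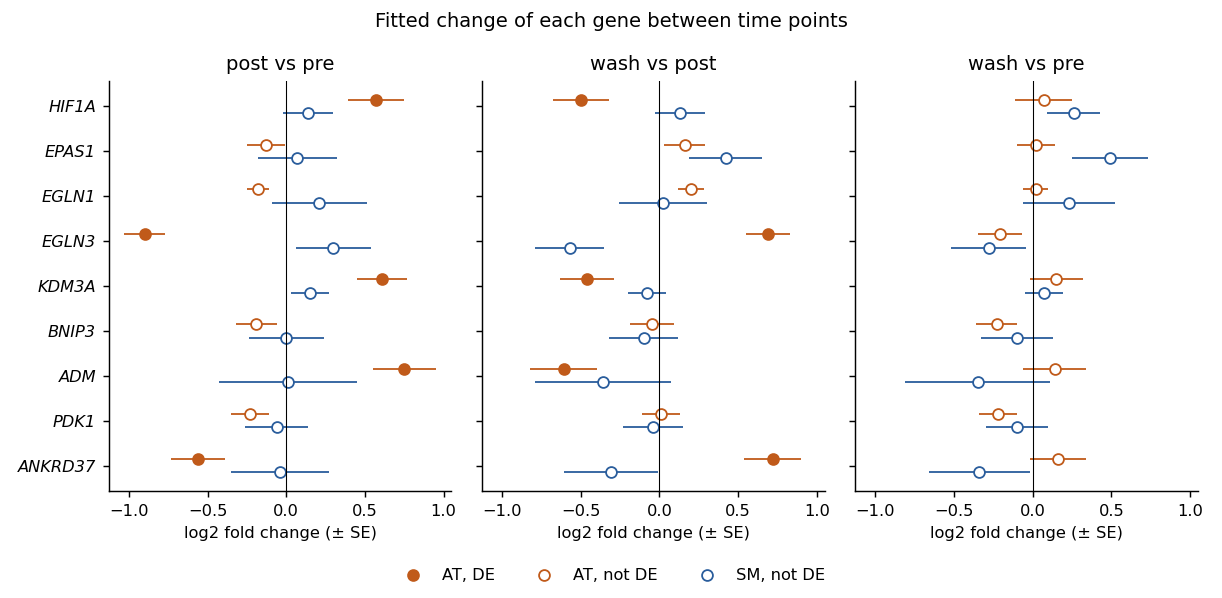
Fitted log2 fold change of each gene in the 3 comparisons between time points, in AT (orange) and SM (blue), with bars of 1 SE and filled symbols for genes that were DE. In AT the 5 filled genes of post vs pre have the opposite sign in wash vs post, and no SM symbol is filled.

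To place these genes in the pathway, 73 further genes were listed as regulators, targets or related demethylases, of which 68 had a row and 67 passed the filter on low counts. In AT at post vs pre, 5 of the 67 rose and 11 fell, where 15.5% of all genes tested were DE. The median change over the 67 genes was 0.00, against 0.03 over all genes tested.

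The glycolytic targets gave 6 of the 11 falls, with 1 rise among 20 tested and a median of -0.08. HK2, the hexokinase that traps glucose in insulin-sensitive tissue, fell by 0.90 on the log2 scale (SE 0.13, adjusted p = 8.59e-04) from 78.0 ± 22.7 to 44.6 ± 19.1 CPM, the same size of change as EGLN3. ALDOC (-0.94), ENO1 (-0.52), ALDOA (-0.44), PGK1 (-0.42) and LDHA (-0.32), which encode later enzymes from aldolase to lactate dehydrogenase, also fell. The 1 gene that rose was MXI1 (0.41), which encodes an antagonist of MYC and not an enzyme of the pathway. The glucose transporter SLC2A1 had 7.89 ± 3.80 CPM at pre and 7.79 ± 2.05 CPM at post (difference 0.03, adjusted p = 0.938). Reads of ALDOA, PGK1, ENO1 and LDHA may be shared with processed pseudogenes, and how the authors' counting treated such reads is not given in the sources used here.

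Of the mitochondrial targets, which include relatives of BNIP3 and PDK1, 2 of 6 fell and 0 rose (median -0.14). PDK3, a paralog of PDK1, fell by 0.61 (SE 0.13, adjusted p = 0.00768), and COX4I2, the low-oxygen isoform of a cytochrome oxidase subunit, fell by 1.05 (SE 0.21, adjusted p = 0.00455). BNIP3L, the close relative of BNIP3, had a difference of 0.01 (adjusted p = 0.930). Among 13 angiogenic or secreted targets (median 0.21), 1 rose and 2 fell: IGFBP3, a binding protein of insulin-like growth factors, rose by 0.98, STC2 (stanniocalcin 2) fell by 1.08 and PLOD2, a collagen lysyl hydroxylase, fell by 0.65. VEGFA, the vascular growth factor, was not DE (-0.33, SE 0.17, adjusted p = 0.179).

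Of the regulators, 1 of 12 was DE (median 0.10): TCEB1, which encodes elongin C of the VHL complex, fell by 0.32 (adjusted p = 0.0273). ARNT, the partner of HIF1A, had a difference of 0.21 (adjusted p = 0.0705), EGLN2 of 0.05 (adjusted p = 0.737) and HIF3A of -0.24 (adjusted p = 0.706). HIF1AN, the asparagine hydroxylase that blocks HIF activity, had an adjusted p of 0.0344 but a difference of -0.22, under the fold limit. Among 10 stress and ion targets (median 0.16), 1 was DE: CA12, a carbonic anhydrase, rose by 0.81, and CA9 was not (0.39, adjusted p = 0.204).

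The 6 listed histone demethylases gave 2 rises and 0 falls (median 0.13). JMJD1C, a paralog of KDM3A, rose by 0.41 (SE 0.11, adjusted p = 0.0208) from 73.7 ± 14.2 to 96.9 ± 15.9 CPM in 8 of 9 animals, and KDM5B, an H3K4 demethylase that is also a hypoxia target, rose by 0.30 (adjusted p = 0.0157) in 9 of 9. The other KDM3A paralog, KDM3B, had 101 ± 13.4 CPM at pre and 98.5 ± 7.98 CPM at post (difference -0.03, SE 0.08, adjusted p = 0.843).

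**Figure D3:**
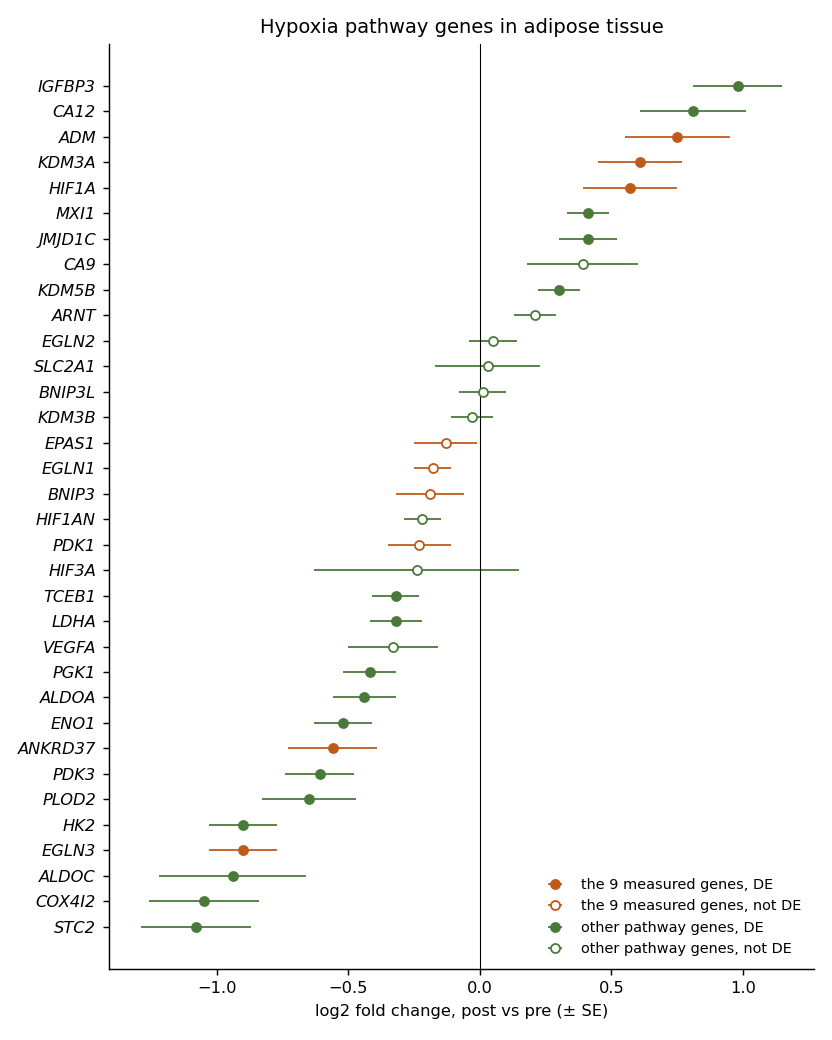
Log2 fold change (± 1 SE) in AT at post vs pre of the 9 measured genes (orange) and of the pathway genes named in the text (green), sorted by change, with filled symbols for DE genes. EGLN3 and HK2 both sit at -0.90, and KDM3A, HIF1A and ADM sit among the rises with IGFBP3, CA12, MXI1, JMJD1C and KDM5B.

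Cell type markers moved in the same AT biopsies. All 12 macrophage markers were higher at post than at pre, 4 of them DE, and their summed level ranged from 806 to 3000 CPM at pre (median 1645) and from 1234 to 7580 CPM at post (median 3158). Of 6 measured adipocyte markers, 3 fell and none rose, with sums of 17015 to 34738 CPM at pre and 9988 to 30812 CPM at post. None of 11 endothelial markers was DE, with sums of 1003 to 1949 CPM at pre and 903 to 2147 CPM at post. Of the other lists, 1 of 6 progenitor and 1 of 10 immediate early genes rose, and 1 of 3 tested erythroid genes fell. In a bulk biopsy, fewer cells of a type and less RNA per cell cannot be told apart.

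The size of the change per animal differed among the 5 DE genes in its relation to these markers. Over the 9 animals with both biopsies, the log2 change of the summed macrophage markers, which ran from -0.43 in animal 20456 to 2.74 in animal 20275, was related to the change of HIF1A (Pearson r = 0.928, exact permutation p = 6.31e-04, adjusted over 25 relations 0.00789; Spearman rho = 0.883, exact p = 0.00308, adjusted 0.0384). The change of EGLN3 was related in the opposite direction (r = -0.906, exact permutation p = 3.11e-04, adjusted 0.00778, with rho = -0.900, exact p = 0.00203, adjusted 0.0384). For KDM3A the Pearson value passed (r = 0.884, exact permutation p = 0.00240, adjusted 0.0193) and the Spearman value did not (rho = 0.717, exact p = 0.0369, adjusted 0.180).

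For ADM no relation was detected (r = -0.00867, exact permutation p = 0.983, with rho = -0.0667, exact p = 0.880), although its rise was of the same order as that of HIF1A and KDM3A. For ANKRD37 the values were r = -0.519 (exact permutation p = 0.154, adjusted 0.299) and rho = -0.733 (exact p = 0.0311, adjusted 0.180). Without the 2 animals farthest from the median, 20275 and 22130, the remaining 7 gave r = 0.712 for HIF1A (exact p = 0.0871), 0.623 for KDM3A (exact p = 0.141) and -0.770 for EGLN3 (exact p = 0.0383). The direction was the same in all 3, and the exact p of HIF1A and KDM3A did not pass 0.05 in these 7 animals. In the 6 animals whose libraries both carried identifiers of the highest number series, which include 20275 and not 22130, r was 0.889 for HIF1A, 0.977 for KDM3A and -0.935 for EGLN3. The summed adipocyte markers were related to KDM3A by Pearson's value (r = -0.868, exact permutation p = 0.00580, adjusted 0.0242) but not by Spearman's (rho = -0.567, exact p = 0.121, adjusted 0.301), and r was -0.310 without the same 2 animals and -0.914 in the 6. No other relation of the 5 genes to the adipocyte markers, and none to the endothelial markers, passed after adjustment. These relations do not say which cells held the RNA, and the part of the macrophage markers in the changes was not tested.

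**Figure D4:**
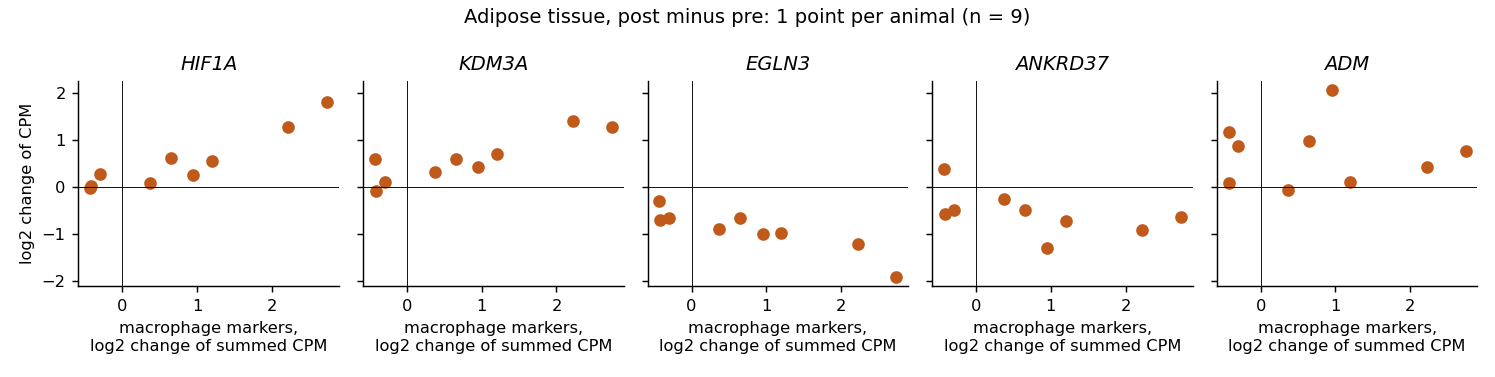
Change between pre and post in AT per animal (n = 9), with the log2 change of the summed macrophage markers on the x axis and the log2 change of CPM of each DE gene on the y axis. HIF1A and KDM3A tended to rise more, and EGLN3 to fall more, in the animals with a larger rise of the macrophage markers. The points of ADM show no trend.

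Among the members themselves, the change of HIF1A was related to that of KDM3A (r = 0.861, exact permutation p = 0.00452, adjusted 0.0226) and, inversely, to that of EGLN3 (r = -0.869, exact permutation p = 0.00308, adjusted 0.0193). The rank values did not pass after adjustment (rho = 0.650 and -0.650, exact p = 0.0666, adjusted 0.208 for both). Without animals 20275 and 22130, r was 0.516 (exact p = 0.228) and -0.365 (exact p = 0.421), so neither relation held in the remaining 7 animals. In the 6 animals of the highest number series, which include 20275 and not 22130, r was 0.928 and -0.868.

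After washout in AT, all of the 5 genes moved back. EGLN3 and ANKRD37 rose and HIF1A, KDM3A and ADM fell between post and wash, so that 5 of 9 genes were DE, where 35.4% of all genes tested were (17.6% higher and 17.8% lower). This comparison uses the same post libraries as the first, so the opposite signs are not independent of it.

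EGLN3 ranged from 19.3 to 73.9 CPM at wash (median 53.1) and was higher than at post in 8 of 8 animals. Its rise was 0.69 on the log2 scale (SE 0.14, adjusted p = 0.00105). ANKRD37 ranged from 4.55 to 11.1 CPM (median 9.74) and rose by 0.72 (SE 0.18, adjusted p = 0.00506), again in 8 of 8 animals. Both calls held without any one of the 10 animals, but EGLN3 was not DE without the animal as a block (0.56, adjusted p = 0.0856).

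The falls of the other 3 genes were less uniform. ADM ranged from 38.4 to 137 CPM at wash (median 74.2) and fell by 0.61 (SE 0.21, adjusted p = 0.0288), lower in 5 of 8 animals. HIF1A ranged from 131 to 262 CPM (median 187) and fell by 0.50 (SE 0.18, adjusted p = 0.0404), lower in 6 of 8. KDM3A ranged from 48.8 to 89.8 CPM (median 56.5) and fell by 0.46 (SE 0.17, adjusted p = 0.0386), lower in 6 of 8. Each of these 3 calls was lost without some single animals: 4 for ADM, 6 for HIF1A and 6 for KDM3A, and with the identifier series of the libraries in the model only EGLN3 and ANKRD37 remained DE of the 5.

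EGLN1 had an adjusted p of 0.0428 but a change of 0.20 (SE 0.08), under the fold limit, with 106 ± 16.9 CPM at wash (SD, n = 8). EPAS1 (0.16, adjusted p = 0.339), BNIP3 (-0.05, adjusted p = 0.814) and PDK1 (0.01, adjusted p = 0.945) were not DE.

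Of the 67 pathway genes, 14 rose and 14 fell between post and wash, where 35.4% of all genes tested were DE. The median change over the 67 genes was -0.06, against -0.00 over all genes tested. HIF3A, an alpha subunit with an inhibitory isoform, rose by 2.41 (SE 0.38, adjusted p = 1.39e-04) from 1.49 ± 0.797 to 9.41 ± 6.45 CPM in 8 of 8 animals. COX4I2 rose by 1.40 and VEGFA by 1.07, the latter from 51.5 ± 18.7 to 116 ± 44.9 CPM. IGFBP3 fell by 1.19 and ANGPTL4, an inhibitor of lipoprotein lipase, by 1.11. JMJD1C fell by 0.55 in 8 of 8 animals, CA9 by 0.58 and ARNT by 0.30, while KDM3B (-0.02), EGLN2 (-0.05), HIF1AN (0.05), SLC2A1 (0.10), LDHA (0.01) and BNIP3L (-0.12) were not DE. All 12 macrophage markers fell in this comparison, to a summed level of 563 to 2866 CPM at wash (median 869), 6 of 11 endothelial markers rose, and 3 of 3 tested erythroid markers rose, whose sums were 454 to 7643 CPM at post and 457 to 11986 CPM at wash. In the same comparison 2 of 6 adipocyte markers rose, and 2 of 6 progenitor and 2 of 10 immediate early genes fell. The part of these cell types in the changes was not tested.

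Between pre and wash in AT, 0 of the 9 genes were DE by edgeR, with 0 at an unadjusted p under 0.05, while 20.5% of all genes tested were (12.5% higher and 7.96% lower). The smallest adjusted p among the 9 was 0.215, for PDK1 (-0.22, SE 0.12, lower in 7 of 8 animals). KDM3A differed by 0.15 (SE 0.17), HIF1A by 0.07 (SE 0.18), ADM by 0.14 (SE 0.20), ANKRD37 by 0.16 (SE 0.18) and EGLN3 by -0.21 (SE 0.14), the last lower in 7 of 8 animals. EPAS1 (0.02, SE 0.12), EGLN1 (0.02, SE 0.08) and BNIP3 (-0.23, SE 0.13) were not DE either. DESeq2 and voom called none of them, and fitting only these time points called 1, BNIP3 (-0.26, adjusted p = 0.0494).

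Of the 67 other pathway genes, 5 were DE higher and 1 was DE lower at wash than at pre. Over all genes tested, 20.5% were DE (12.5% higher and 7.96% lower). HIF3A was higher by 2.17 (adjusted p = 2.45e-04), ENO2, the neuronal enolase, by 1.24 from 5.06 ± 2.09 to 12.1 ± 2.60 CPM, and VEGFA by 0.74 (adjusted p = 0.00457), each in 8 of 8 animals. LDHA was the 1 gene that was lower (-0.31, adjusted p = 0.0408). The median over the 67 genes was -0.08, against -0.02 over all genes tested. ARNT (-0.08), HIF1AN (-0.16), EGLN2 (-0.00), SLC2A1 (0.13), BNIP3L (-0.10), CA9 (-0.19), KDM3B (-0.05) and JMJD1C (-0.14) were not DE. Of the cell type markers in the same comparison, all 12 macrophage markers were lower at wash, 6 of them DE (median -0.85), and 6 of 11 endothelial markers were DE higher (median 0.50). Their part in the differences of these genes was not tested.

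In SM, 0 of the 9 genes were DE in any of the 3 comparisons. Between pre and post, 0% of the 12617 genes tested were DE by edgeR, DESeq2 or voom, with 409 genes at an unadjusted p under 0.05 in edgeR, none of them among the 9. At wash vs post, 0.190% of genes were DE, and at wash vs pre 0.0634%. The biological coefficient of variation left after the time point and the animal were fitted was 0.356 in SM and 0.248 in AT.

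**Figure D5:**
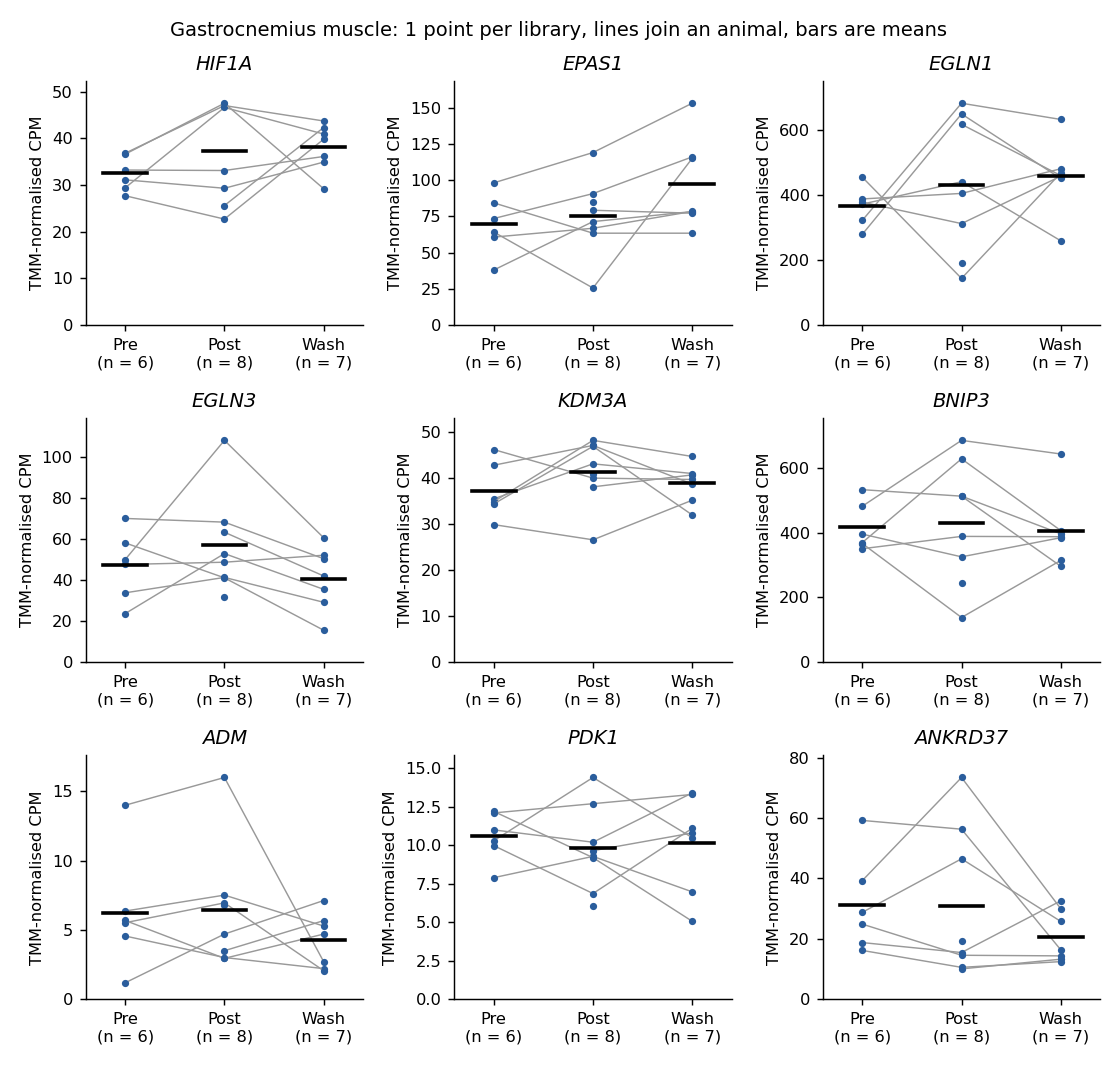
TMM-normalised CPM of the 9 measured genes in SM at pre (n = 6), post (n = 8) and wash (n = 7), with 1 point per library, grey lines joining an animal and black bars at the group means. EGLN1, BNIP3 and ANKRD37 each spread more at post than at pre or wash, and animal 21189 has the lowest EGLN1, BNIP3 and EPAS1 and the highest EGLN3 of the post libraries.

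HIF1A in SM had 32.5 ± 3.75 CPM (SD, n = 6) at pre, 37.4 ± 10.8 CPM (n = 8) at post and 38.1 ± 5.06 CPM (n = 7) at wash. At post it lay near 47 CPM in 4 animals and between 22.7 and 33.1 CPM in the other 4. The 3 post libraries of the highest number series had 46.6, 47.2 and 47.5 CPM. The 5 of the lowest series ran from 22.7 to 47.0 CPM, and the part of the series in this split was not tested. EPAS1 had 69.8 ± 20.7, 75.1 ± 26.6 and 97.2 ± 31.6 CPM at the 3 time points. It was higher at wash than at post in 6 of 7 animals (0.42, SE 0.23, adjusted p = 0.366), and was DE there only with the identifier series in the model (0.87, adjusted p = 0.0321), a setting in which 2648 genes were DE. The wash group holds no library of the lowest number series and 5 of the 8 post libraries carry it, so series and time point are partly confounded in SM.

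EGLN1 ranged from 280 to 456 CPM at pre (median 376), from 144 to 684 CPM at post (median 424) and from 260 to 634 CPM at wash (median 461). The lowest post values, 144, 191 and 313 CPM in animals 21189, 21866 and 24849, were those of the 3 post libraries of the highest number series. The 5 post libraries of the lowest series ran from 406 to 684 CPM, and the part of the series in this spread was not tested. EGLN3 ranged from 23.7 to 70.0 CPM at pre, from 31.6 to 108 CPM at post and from 15.6 to 60.6 CPM at wash, lower at wash than at post in 6 of 7 animals (-0.57, SE 0.22, adjusted p = 0.218). It was the 1 gene of the 9 with an unadjusted p under 0.05 in that comparison, and its change was -0.44 (adjusted p = 0.529) without the post library of animal 21189.

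KDM3A lay between 26.6 and 48.2 CPM in all 21 SM libraries, with 37.3 ± 6.03 CPM at pre, 41.4 ± 7.02 CPM at post and 38.9 ± 4.15 CPM at wash. Its change at post vs pre was 0.15 (SE 0.12, adjusted p = 1). BNIP3 had 415 ± 73.6, 429 ± 189 and 404 ± 113 CPM, and the post value of animal 21189, 138 CPM, was the lowest. ADM was near the lower end of the counts, with 6.23 ± 4.22, 6.43 ± 4.27 and 4.26 ± 1.95 CPM, and animal 24849 had the highest value at both pre and post. PDK1 had 10.6 ± 1.58, 9.79 ± 2.74 and 10.2 ± 3.11 CPM. ANKRD37 ranged from 16.2 to 59.2 CPM at pre (median 26.9), from 10.1 to 73.4 CPM at post (median 17.4) and from 12.5 to 32.6 CPM at wash (median 16.4).

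None of the 67 pathway genes was DE in SM in any comparison, with median changes of -0.02 at post vs pre, -0.09 at wash vs post and -0.09 at wash vs pre, against -0.02, -0.03 and -0.05 over all genes tested. The 11 genes named whatever their change ran from -0.30 (LDHA) to 0.24 (CA9) at post vs pre, from -0.67 (CA9) to 0.51 (JMJD1C) at wash vs post and from -0.81 (HIF3A) to 0.43 (JMJD1C) at wash vs pre. The summed slow fibre markers ranged from 47.1 to 9295 CPM at pre, from 371 to 31779 CPM at post and from 2569 to 27028 CPM at wash, and the part of fibre make-up in the spread of the 9 genes was not tested. Without the post library of animal 21189, 0 of the 9 genes were DE in any of the 3 comparisons, as with it.

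The change itself was compared between tissues in 1 model of all 48 libraries and 12322 genes. At wash vs post, 2 of the 9 genes changed differently in SM and AT, where 22.7% of genes did. EGLN3, which rose in AT, had a change in SM that was lower by 1.25 on the log2 scale (SE 0.27, adjusted p = 0.00128), called in 14 of 14 other settings. For ANKRD37 the SM change was lower by 1.01 (SE 0.34, adjusted p = 0.0327), called in 9 of 14. HIF1A differed by 0.64 (SE 0.25, adjusted p = 0.0637) and KDM3A by 0.40 (SE 0.21, adjusted p = 0.186), neither called.

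At post vs pre, 0 of the 9 genes and 0.0487% of all genes (6) differed between tissues. EGLN3 had the largest difference of the 9, 1.26 (SE 0.28, adjusted p = 0.0672), and was called without animal 22130 only. KDM3A differed by -0.41 (SE 0.22, adjusted p = 0.513), so that its rise in AT was not shown to be particular to AT. At wash vs pre, 17.5% of genes and 0 of the 9 differed, with the smallest adjusted p for EPAS1 (0.52, SE 0.26, adjusted p = 0.181).

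Levels before treatment were compared between tissues in a joint scaling. Of the 9 genes, 8 differed between SM and AT, a share near the 78.3% of all genes that did (36.8% higher in SM and 41.5% lower), and 7 of the 8 differed in each of 3 alternatives. The sizes depend on the scaling, since library size alone moved the median of all genes by -0.72 on the log2 scale. Both alpha subunits were higher in AT. EPAS1 had 594 ± 88.6 CPM (SD, n = 10) in AT and 93.6 ± 27.9 CPM (n = 6) in SM, 6.43-fold higher in AT (adjusted p = 1.53e-13) and 10.7-fold with library size alone. HIF1A had 143 ± 21.4 CPM in AT and 43.5 ± 4.92 CPM in SM, 3.25-fold higher in AT (adjusted p = 3.76e-10) and 5.37-fold with library size alone.

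ADM was 7.07-fold higher in AT (56.0 ± 16.6 against 8.38 ± 5.80 CPM, adjusted p = 1.09e-08) and PDK1 2.07-fold higher (30.0 ± 4.10 against 14.2 ± 2.34 CPM, adjusted p = 2.14e-06). The opposite held for EGLN1, 6.20-fold higher in SM (493 ± 88.1 against 81.2 ± 11.0 CPM, adjusted p = 1.26e-13). BNIP3 was 6.22-fold higher in SM (557 ± 97.1 against 93.0 ± 22.0 CPM, adjusted p = 6.89e-15) and ANKRD37 5.97-fold (41.5 ± 20.3 against 6.29 ± 1.88 CPM, adjusted p = 8.15e-11). With library size alone, ADM was 11.7-fold and PDK1 3.44-fold higher in AT, and EGLN1 was 3.74-fold, BNIP3 3.78-fold and ANKRD37 3.66-fold higher in SM. For HIF1A, EPAS1, EGLN1, BNIP3, ADM and ANKRD37, no AT library of any time point overlapped with any SM library. The share of all genes without such overlap was not counted, so this is not shown to be particular to these genes.

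EGLN3 was 1.51-fold higher in SM (63.5 ± 22.5 against 46.7 ± 12.6 CPM, adjusted p = 0.0294) and KDM3A was not called (50.1 ± 8.82 against 44.8 ± 9.44 CPM, adjusted p = 0.388). For these 2 genes the direction depends on the scaling: with library size alone EGLN3 differed by -0.14 (adjusted p = 0.635) and KDM3A by -0.58 (adjusted p = 0.00293, SM minus AT). The call of EGLN3 was also lost with no replicate block (0.46, adjusted p = 0.122) and was kept with voom. In order of group means on the joint scale, KDM3A was lowest in AT at pre (44.8 CPM), then SM at pre and AT at wash (both 50.1 CPM), SM at wash (54.4 CPM), SM at post (56.7 CPM) and AT at post (67.8 CPM). Within AT, KDM3A was DE between post and both other time points, and no difference between pre and wash was detected. Within SM it was not DE between any pair of time points, and of the pairs across tissues only pre was tested.

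Across the 27 AT libraries, genes were ranked by the correlation of their log2 CPM with that of KDM3A after the mean of each animal was removed, restricted to 12139 genes averaging 1 CPM or more. The 5 most like KDM3A were IRF5, SLC18B1, FGL2 (all Pearson r = 0.91), THSD7A and MTSS1 (both 0.90), and PIR was least like it (-0.91). IRF5 is a transcription factor of inflammatory macrophages and FGL2 a secreted protein expressed by immune cells. HIF1A stood at rank 233 of that list (0.80) and EGLN3 had -0.70. By Spearman's rho, 3 of the 5 (SLC18B1, FGL2 and THSD7A) were again among the 5 most like KDM3A, IRF5 was not, and PIR was again lowest.

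For HIF1A the 5 were LXN (0.96), SGK1, RIT1, ARPC5 (all 0.95) and CSF2RB (0.94), with TIMP3 lowest (-0.96). SGK1 is a glucocorticoid-induced kinase, ARPC5 a subunit of the actin-nucleating Arp2/3 complex and CSF2RB the shared beta chain of myeloid cytokine receptors. For EGLN3 they were SHROOM2 (0.93), SLC24A3, ADGRA3, LANCL2 (all 0.92) and FFAR4 (0.91), with MAN1C1 lowest (-0.91). FFAR4 is the long-chain fatty acid receptor of adipocytes. ANKRD37 stood at rank 504 for EGLN3 (0.75) and HIF1A had -0.80. By Spearman's rho, 2 of the 5 for HIF1A (LXN and CSF2RB) were again in the top 5 and ARPC1A was lowest, while for EGLN3 3 of the 5 were (SLC24A3, ADGRA3 and LANCL2), without FFAR4. These libraries share animals, time points and cell make-up, and the values are a description.

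In the 21 SM libraries the genes most like BNIP3 over 11143 genes were SETD9 (0.97), SDHD, FDX1, MRPL30 and PRDX3 (all 0.96), with FBLIM1 lowest (-0.94). SDHD is a subunit of respiratory complex II, FDX1 a mitochondrial ferredoxin, MRPL30 a mitochondrial ribosomal protein and PRDX3 a mitochondrial peroxidase. EGLN1 stood at rank 56 (0.90) and PDK1 at rank 597 (0.77), while EGLN3 (0.20) and KDM3A (0.11) had weak values. By Spearman's rho, 2 of the 5 (MRPL30 and PRDX3) were again in the top 5, and LTBR was lowest. The library of animal 21189 at post, low in both BNIP3 and EGLN1, is among these 21.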

How the data were processed

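Poly(A) RNA was sequenced as stranded, paired-end 50 nucleotide reads on an Illumina HiSeq and aligned by the authors with STAR to the MacaM macaque genome, with macaque genes matched by symbol to human homologs; the read counter, its strand setting and tool versions are not given in the sources used here. The deposited table holds raw counts, not normalized, for 16103 entries, of which 70 repeats were dropped. Of 51 labelled samples, 3 SM samples had no counts here. Columns of no sample numbered 0.

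Counts were filtered within each tissue (at least 0.5 CPM in 10% of libraries), scaled by TMM and tested with edgeR 4.0.16 (R 4.3.3; robust quasi-likelihood, time point plus animal, the study's own block). Same-numbered libraries come from the same animal: deviations from group means correlated at a median of 0.352 in AT and 0.279 in SM within an animal, and at -0.0354 and -0.0464 between animals. Log2 CPM used a prior count of 2. Tissues were compared in joint models (adjusted p under 0.05). DESeq2 1.42.0, limma 3.58.1 (voom with quality weights), other scalings and filters, no block, identifier series and left-out libraries were alternatives; edgeR's earlier method and leaving out the SM post library of animal 21189 were added after seeing the data. Relations across animals used exact two-sided permutation tests (SciPy 1.17.1). Scripts were tested on simulated data.

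The 10 genes and all lists were chosen with earlier results of these data known. Named pathway genes were all those DE in AT post vs pre, the 3 largest DE rises and falls elsewhere, and 11 fixed relatives of the 10. One gene that this rule names is not reported here. Lengths were not used here, so levels are compared only within a gene.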

Additional observations from a re-analysis of the deposited data

Results flagged for a closer look

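In 4 of 54 groups of a gene, tissue and time point, 1 SM library lay farther from the others than Dixon's 95% limit on the log2 CPM scale, where chance gives about 1 in 20. EPAS1 at post was lowest in animal 21189 (25.6 CPM, gap ratio 0.589), the library with the lowest muscle markers. KDM3A at post was lowest in animal 20275 (26.6 CPM, 0.606). At wash, EGLN1 was lowest in animal 22130 (260 CPM, 0.620) and BNIP3 was highest in animal 19832 (642 CPM, 0.593).

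The change from post to wash differed between tissues for EGLN3 (SM minus AT, -1.25 on the log2 scale, adjusted p = 0.00128) and for ANKRD37 (-1.01, adjusted p = 0.0327) in the joint edgeR model, 2 of the 9 genes where 22.7% of all genes differed. The call of EGLN3 held in 14 of 14 other settings and that of ANKRD37 in 9 of 14, lost with voom and without animal 19832, 20275, 23004 or 24849 (adjusted p 0.0115 to 0.105 over the 14). EGLN3 was higher at wash than at post in 8 of 8 animals in AT and in 1 of 7 in SM, and ANKRD37 in 8 of 8 and 3 of 7.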

How the results depend on the processing

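In AT the DE count at post vs pre was 2068 and fell to 1162 without the pre library of animal 20275. It ranged from 805 to 2214 when each animal was left out, and the DE members from 2 to 5. At wash vs post, 5 members were DE, against 3 with voom, 3 with library size alone, 2 with the identifier series and 2 with only those time points, and 2 to 5 with animals left out. At wash vs pre, 1 member was DE with only those time points.

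The main fit holds the animal as the replicate block. Without the replicate block, EGLN3 at wash vs post (0.56, adjusted p = 0.0856) and ANKRD37 at post vs pre (-0.61, adjusted p = 0.0665) in AT were not DE, the change of PDK1 at wash vs post was -0.02 in AT and 0.05 in SM, and the DE genes in SM numbered 216 at wash vs post and 41 at wash vs pre. The unpaired fit called 3 tissue differences at post vs pre.

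HIF1A at post vs pre was not DE with voom (0.33, adjusted p = 0.0878), with only those time points (0.53, adjusted p = 0.0756) or without the pre library of animal 20275 (0.47, adjusted p = 0.0902), and ANKRD37 was not with library size alone (-0.53, adjusted p = 0.0507). The causes were not tested.

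In SM, DE genes at wash vs post numbered 24, against 359 with DESeq2, 9 with voom, 4 with library size alone, 2648 with the identifier series (1 of them a member), 2 with only those time points, 2 without the post library of animal 21189, and 0 to 38 with animals left out. At wash vs pre they numbered 8, against 170 with DESeq2, 3 with edgeR's earlier method, 3 with library size alone, 17 with at least 10 counts in every library, 1353 with the identifier series, 32 without that library, and 0 to 16 with animals left out. Tissue differences at post vs pre numbered 6, against 0 with library size alone, 14 without that library and 0 to 15 with animals left out. At wash vs post they numbered 2794, against 1716 with voom and 1894 to 2783 with animals left out, and at wash vs pre 2157 and 1425 to 2358.

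Only changes of members that were not DE turned sign. With voom these were PDK1 at wash vs post in AT (-0.00) and in SM HIF1A (-0.05), ADM (-0.15), PDK1 (0.06) and ANKRD37 (0.13) at post vs pre, EGLN1 at wash vs post (-0.18) and PDK1 at wash vs pre (0.06). With library size alone they were BNIP3 at wash vs post in AT (0.03), HIF1A (-0.01) and EGLN1 (-0.05) at wash vs post in SM and KDM3A at wash vs pre in SM (-0.00). With the identifier series they were PDK1 at wash vs post (-0.08) and EGLN1 at wash vs pre (-0.01) in AT, and in SM EPAS1 (-0.14), EGLN1 (-0.05) and BNIP3 (-0.15) at post vs pre, HIF1A (-0.07), BNIP3 (0.30) and PDK1 (0.19) at wash vs post, and BNIP3 (0.15) and PDK1 (0.08) at wash vs pre. With only the compared time points they were EPAS1 (-0.01) and BNIP3 (-0.04) at post vs pre in SM. Without the pre library of animal 20275, HIF1A at wash vs pre in AT was -0.00. Without the SM post library of animal 21189, ADM (-0.02), PDK1 (0.05) and ANKRD37 (0.10) at post vs pre and EGLN1 at wash vs post (-0.17) in SM turned. When each animal was left out, the changes that crossed zero ran in AT at wash vs post from -0.17 to 0.03 for BNIP3 and from -0.08 to 0.09 for PDK1, and at wash vs pre from -0.02 to 0.05 for EGLN1 and from -0.05 to 0.13 for EPAS1. In SM at post vs pre they ran from -0.19 to 0.15 for ADM, from -0.23 to 0.11 for ANKRD37, from -0.15 to 0.27 for BNIP3, from -0.09 to 0.29 for EPAS1 and from -0.17 to 0.06 for PDK1. In SM at wash vs post they ran from -0.26 to 0.00 for BNIP3, from -0.18 to 0.14 for EGLN1, from -0.15 to 0.00 for KDM3A and from -0.15 to 0.07 for PDK1, and at wash vs pre from -0.19 to 0.03 for BNIP3, from -0.43 to 0.03 for EGLN3 and from -0.14 to 0.11 for PDK1.

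Library size alone moved the median of all genes by 0.11 at wash vs pre in AT, by -0.13 at wash vs post in SM, and by -0.22 and -0.24 for the tissue differences at wash vs post and wash vs pre.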
